A study of Mus musculus with 6 samples.

Results

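The Hedgehog pathway genes Shh, Ihh, Dhh, Ptch1, Smo, Gli1, Gli2, Gli3 and Sufu were followed on gene arrays of primary mouse osteoblasts. Their probes were found by the RefSeq accession in the array annotation. This gave 11 probes for the 9 genes, of 39429 probes and 20659 named genes on the array. A probe of these genes annotated without a matching RefSeq accession would be missed. Smo and Sufu had 2 probes each, and the 10 spots of the Shh probe were averaged as 1 probe. Osteoblasts came from the calvaria of CD1 mice 2 to 5 days old, and RNA was hybridized to 1-color Agilent arrays. Undifferentiated osteoblasts (2 arrays) had been grown to confluence. Differentiated osteoblasts (2 arrays) were then kept in differentiation medium for 30 days, and cabozantinib-treated osteoblasts (2 arrays) were kept in the same medium for 30 days with 100 nM cabozantinib, an inhibitor of the kinases VEGFR2 and MET. The labels and the array methods both give 30 days, while the study's results text gives an earlier day for the differentiated cells. The sources do not say whether replicates came from separate cultures or whether animals were pooled, so the p values measure only the spread between these samples, which may be technical.

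Hedgehog proteins are secreted signals. Sonic (Shh), Indian (Ihh) and Desert hedgehog (Dhh) bind the receptor Patched1 (Ptch1), which then stops holding down Smoothened (Smo), a membrane protein that acts at the primary cilium. Smoothened releases the GLI transcription factors from Suppressor of fused (Sufu). Gli2 is mainly an activator and Gli3 mainly a repressor, and Gli1 and Ptch1 are themselves targets that are widely used as readouts of pathway activity. In growing bone, Ihh is made by prehypertrophic chondrocytes and acts on osteoblast progenitors, and Dhh is known from Schwann cells and the testis.

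Levels are given as the log2 signal minus the 75th percentile of the array, so that 0 is the level of a fairly bright probe and a negative value lies below it. A probe was well above background where the scanner software called at least a fraction of 0.5 of its spots so. Levels are compared for the same probe between arrays and not between probes, because probes differ in binding. Of the spots on each array, 58.8% to 72.9% were well above background, and the 75th percentile of the signal ranged from 625 to 1773 (arbitrary units). One slide held the 4 arrays without cabozantinib and a second slide those with it, so cabozantinib and the slide cannot be told apart. The osteoblast genes Col1a1, Col1a2 and Alpl were above background throughout, and the osteocalcin gene Bglap2 was 5.06 higher (log2, SE 0.50) in differentiated than in undifferentiated osteoblasts. Runx2, the master regulator of osteoblasts, stood above background in both undifferentiated samples, in neither differentiated sample and in 1 of the cabozantinib samples. Genes of other cells were also present. The cartilage collagen gene Col2a1 lay between 6.31 and 7.56, and the macrophage receptor gene Csf1r between 3.58 and 7.54.

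The promoter sequences of 7 of the 9 genes were matched in the RefSeq table (build GRCm38.p6), each running from 250 bases before to 50 bases after the gene start. Shh and Gli1 had no entry. The windows of Dhh (chr15:98898491-98898790, minus strand) and Sufu (chr19:46396646-46396945, plus strand) are shown because Dhh and Sufu are, with Gli1, the genes whose probes moved most. Capitals mark GC boxes, the letters GGGCGG or, on the other strand, CCGCCC.

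Dhh: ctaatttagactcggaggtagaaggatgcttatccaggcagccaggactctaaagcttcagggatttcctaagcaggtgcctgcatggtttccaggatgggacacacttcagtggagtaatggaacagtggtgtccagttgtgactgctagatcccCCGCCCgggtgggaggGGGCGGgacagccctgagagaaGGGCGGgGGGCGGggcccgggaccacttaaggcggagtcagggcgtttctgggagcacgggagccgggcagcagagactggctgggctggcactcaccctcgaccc

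Sufu: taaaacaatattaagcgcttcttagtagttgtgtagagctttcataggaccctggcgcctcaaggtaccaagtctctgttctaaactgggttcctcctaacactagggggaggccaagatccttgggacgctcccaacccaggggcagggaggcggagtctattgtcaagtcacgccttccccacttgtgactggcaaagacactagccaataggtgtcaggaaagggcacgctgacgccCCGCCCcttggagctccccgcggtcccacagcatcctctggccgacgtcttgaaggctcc

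The Dhh window held 4 GC boxes and the Sufu window 1. A GC box was found in 6 of the 7 windows, all but that of Smo, and in 35.7% of the 32851 windows of all genes. The GLI core motif GACCACCCA, searched on both strands, was found in 0 of the 7 windows and in 0.253% of all windows. The motifs do not contain each other. A match or its absence describes these letters only.

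Gli1 and Dhh were higher in differentiated than in undifferentiated osteoblasts. The brighter Sufu probe was called lower, but only 1 undifferentiated array and neither differentiated array was above background, so this call rests on background values. Ihh, Smo, Gli2 and Gli3 showed no change that passed the test, and Shh and Ptch1 were too dim to be tested. Of the 9 probes tested, which were well above background on at least 2 arrays, 3 had an adjusted p under 0.05 in limma, against 10% of all 27196 probes tested. The median over all probes tested was 0.08 (log2). By a second rule, a difference over 2-fold and an unadjusted p under 0.05, 4 of the 9 probes and 21.2% of all probes qualified, the fourth being the dimmer Smo probe. The plot of levels by array shows each probe on each array.

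**Figure D1:**
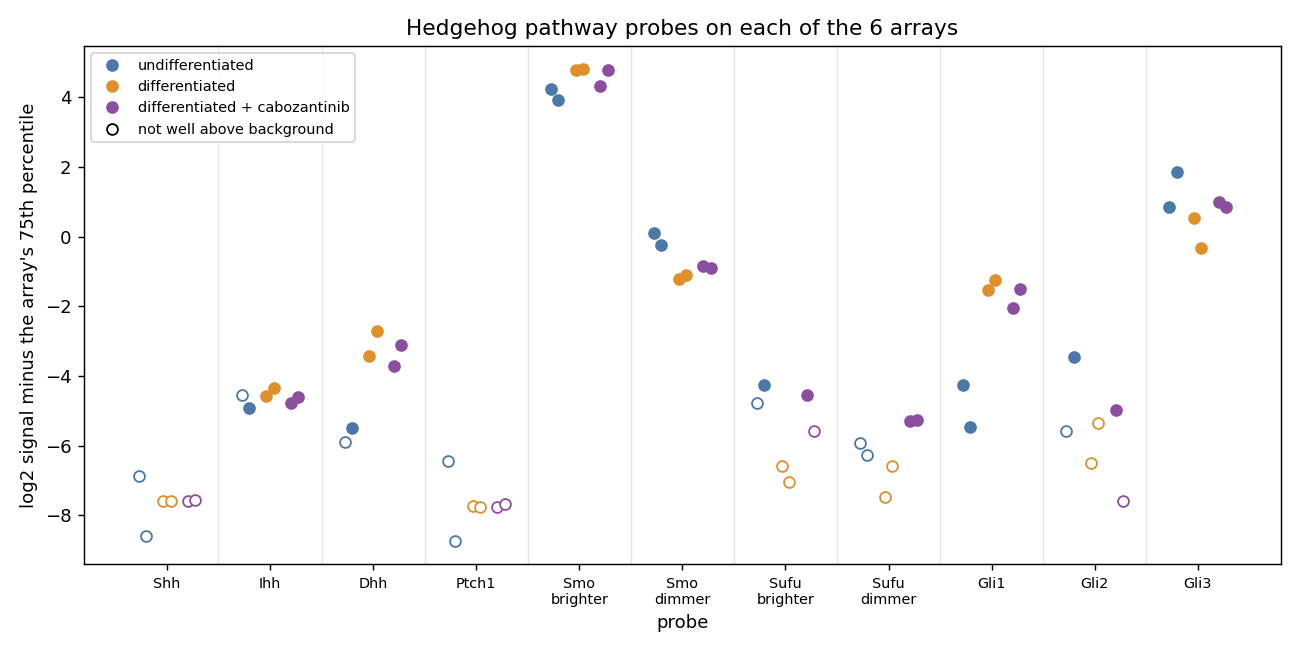
Log2 signal minus the 75th percentile of the array for the 11 probes of the 9 Hedgehog pathway genes on each of the 6 arrays, with open circles where the probe was not well above background. Levels should be compared within a probe. The Gli1 and Dhh points of both differentiated groups lie above the undifferentiated points, and all Shh and Ptch1 points are open.

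Among the ligand genes, Shh was at background on all 6 arrays. None of its 10 spots was well above background on any array, and the level was -6.86 and -8.59 in undifferentiated osteoblasts and between -7.60 and -7.55 in the remaining 4 samples. The probe was not tested, and the arrays give only an upper bound on its level. Ihh was dim but measured, with levels of -4.54 and -4.92 in undifferentiated, -4.58 and -4.34 in differentiated, and -4.79 and -4.61 in cabozantinib-treated osteoblasts. The undifferentiated and the differentiated arrays overlapped, and only undifferentiated replicate 1 was not well above background. The difference between differentiated and undifferentiated osteoblasts was 0.27 (log2, 95% interval -0.83 to 1.37, limma adjusted p = 0.905), so that changes within this interval could not be told from the spread.

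Dhh rose with differentiation. Undifferentiated osteoblasts had levels of -5.89 and -5.49, differentiated osteoblasts of -3.43 and -2.70, and cabozantinib-treated osteoblasts of -3.70 and -3.11. Both differentiated groups lay above both undifferentiated arrays, without overlap, and the probe was well above background on every array but undifferentiated replicate 1. The increase was 2.63 on the log2 scale (SE 0.48, 6.18-fold, limma adjusted p = 0.00803), and 4.71-fold with undifferentiated replicate 1 raised to the lowest signal that counted as well above background there. With differentiated replicate 2 left out it was 2.51 and the adjusted p was 0.0781. With normexp background correction, which compresses dim probes through an added offset of 50, it was 0.78 (adjusted p = 0.970).

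Gli1, the target gene that encodes an activator, had the largest change of the 9 probes tested. Its levels were -4.25 and -5.47 in undifferentiated osteoblasts, -1.54 and -1.25 in differentiated osteoblasts and -2.03 and -1.51 in cabozantinib-treated osteoblasts. The probe was above background on every array, and the groups kept in differentiation medium did not overlap with the undifferentiated group. Its signal on the undifferentiated arrays was only 32.8 and 40.1 (arbitrary units), so the fold is taken against dim values. The increase with differentiation was 3.47 on the log2 scale (SE 0.57, 11.1-fold, limma adjusted p = 0.00465). It ranged from 2.65 to 4.28 when single arrays were left out, and the adjusted p was then at most 0.0418. With normexp it was 1.76 (adjusted p = 0.285). The gap between the undifferentiated arrays (SD 0.86) was wider than that in the other groups (SD 0.21 and 0.37).

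Ptch1, the other target that serves as a readout, could not be followed. The only probe found for it was not well above background on any array. Its levels were -6.44 and -8.73 in undifferentiated osteoblasts and between -7.75 and -7.67 on the other 4 arrays. Gli1 was thus the only measured one of these readout genes.

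Smo was measured by 2 probes, both well above background on all 6 arrays, which moved in opposite directions without passing the test. The brighter probe had levels of 4.25 and 3.93 in undifferentiated, 4.79 and 4.80 in differentiated, and 4.34 and 4.79 in cabozantinib-treated osteoblasts. The dimmer probe had levels of 0.10 and -0.22, -1.22 and -1.10, and -0.84 and -0.89 in the same order. The undifferentiated arrays thus lay below the differentiated arrays at one probe and above them at the other. The differences were 0.70 (SE 0.50, limma adjusted p = 0.530) and -1.10 (SE 0.49, adjusted p = 0.230). The probes are assigned to the same RefSeq transcript, and their positions in it are not given in the sources used here.

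Sufu, the inhibitor that binds GLI proteins, was close to background, and its levels rest on few arrays above it. At the brighter probe the levels were -4.78 and -4.26 in undifferentiated osteoblasts, -6.59 and -7.03 in differentiated osteoblasts, and -4.54 and -5.59 in cabozantinib-treated osteoblasts. Only undifferentiated replicate 2 and cabozantinib replicate 1 were well above background. The fit gave a difference of -2.29 between differentiated and undifferentiated osteoblasts (SE 0.54, limma adjusted p = 0.0259). Neither differentiated array was above background, so this p value sets 1 measured array against values at background. With those arrays set at their dimmest signal called well above background, the level was 2.62-fold lower. This is not a bound, since undifferentiated replicate 1 was itself not above background and was taken at its value. With normexp the difference was -0.77 (adjusted p = 0.932). The adjusted p was 0.0833 after quantile normalization and 0.0789 in the authors' values, and it was 0.0726 without undifferentiated replicate 2 (the only array of the 4 above background), 0.104 without differentiated replicate 1 and 0.164 without differentiated replicate 2. At the dimmer probe the levels were -5.93 and -6.28, -7.46 and -6.60, and -5.28 and -5.26 in the same order of groups. There, only the cabozantinib arrays were well above background, so no fold is given between the other groups.

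Of the remaining GLI genes, Gli3 was well above background on all 6 arrays and Gli2 on 2. Gli3 levels were 0.87 and 1.85 in undifferentiated, 0.53 and -0.33 in differentiated, and 1.01 and 0.85 in cabozantinib-treated osteoblasts. Both differentiated arrays lay below the undifferentiated arrays, but the difference of -1.26 did not pass the test (SE 0.57, limma adjusted p = 0.238). It was -2.01 with an adjusted p of 0.0429 without undifferentiated replicate 1. Gli2 levels were -5.58 and -3.45, -6.49 and -5.36, and -4.98 and -7.59 in the same order, and the groups overlapped. Its difference of -1.41 between differentiated and undifferentiated osteoblasts (limma adjusted p = 0.491) was 0.03 without undifferentiated replicate 2, 1 of the 2 arrays on which it was above background.

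**Figure D2:**
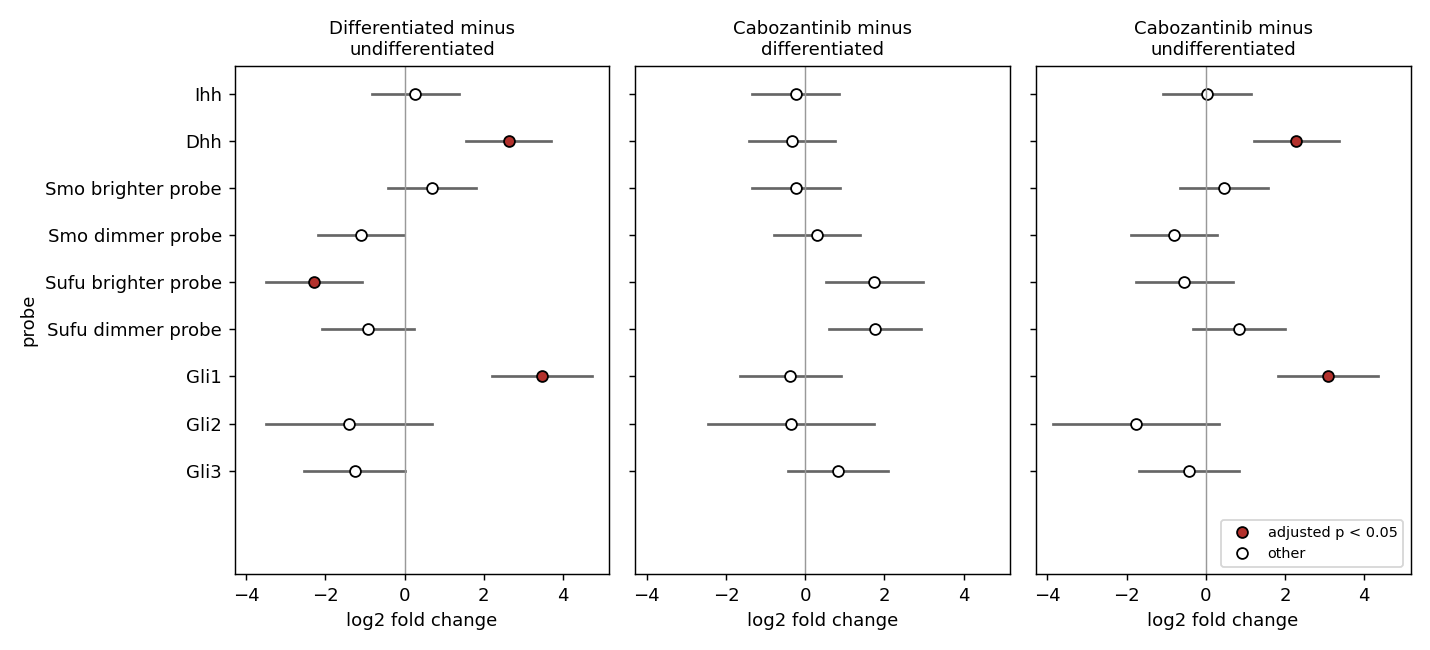
Log2 fold changes of the 9 probes tested, with 95% intervals from limma, for the 3 comparisons of groups of 2 arrays. Red points have an adjusted p under 0.05. Gli1 and Dhh are red in both comparisons with undifferentiated osteoblasts, and no probe is red between cabozantinib and differentiated osteoblasts.

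Between cabozantinib-treated and differentiated osteoblasts, no Hedgehog probe passed the test, both Sufu probes gave higher values under cabozantinib against arrays at background, and the values of Gli1 and Dhh overlapped between the groups. None of the 9 probes had an adjusted p under 0.05, against 2.51% of all probes tested, a share of 682 probes that was 1 probe with the percentile taken over spots and 0 after quantile normalization. An unadjusted p under 0.05 was reached by 2 of the 9 probes, both of Sufu, and by 23.3% of all probes, and the 2-fold rule gave the same counts. The median probe of the array itself differed by -0.27 (log2) between these groups on this scale and by -0.06 after quantile normalization, so differences are also given relative to that median.

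Sufu differed by 1.75 at the brighter probe (95% interval 0.53 to 2.96, limma adjusted p = 0.0929) and by 1.76 at the dimmer probe (0.60 to 2.93, limma adjusted p = 0.0818). Relative to the median probe the differences were 2.02 and 2.04. At both probes the cabozantinib arrays lay above the differentiated arrays, none of which was above background, so these differences are taken against background values. At the brighter probe only cabozantinib replicate 1 was above background, and no bound is given. At the dimmer probe the level with cabozantinib was 1.56-fold higher with the differentiated arrays set at their dimmest signal called well above background. This is not a bound, since probes not called so can lie above that signal. On differentiated replicate 2 that signal was -6.17, and Gli2 at -5.36 was not called. The dimmer Sufu probe entered the test only through its 2 cabozantinib arrays, so its p value does not support a difference. The adjusted p at the brighter and the dimmer probe was 0.0488 and 0.0357 without the replicate term, 0.0305 and 0.0350 on the 4 compared arrays, and 0.187 and 0.178 after quantile normalization. With normexp the differences were 0.074 and 0.18, and neither passed the test. The study listed Sufu among its upregulated genes on these same arrays, so its direction here is not independent evidence.

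Gli1 differed by -0.38 (95% interval -1.65 to 0.89, limma adjusted p = 0.826), which is -0.10 relative to the median probe, and the arrays overlapped. Without cabozantinib replicate 1 the difference was 0.12. Dhh differed by -0.34 (95% interval -1.42 to 0.74, limma adjusted p = 0.811) and its arrays overlapped, and after quantile normalization the sign turned to 0.16. Gli3 was 0.83 higher (95% interval -0.43 to 2.10, limma adjusted p = 0.458), which is 1.11 relative to the median probe, and both cabozantinib arrays lay above both differentiated arrays. The Smo probes differed by -0.23 and 0.30, Ihh by -0.24 and Gli2 by -0.37. The signs of Ihh and Gli2 turned after quantile normalization, to 0.51 and 0.26. These intervals are wide, and changes of the size they cover could not be told from the spread.

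The comparison of cabozantinib-treated with undifferentiated osteoblasts shares its arrays with both comparisons above. Gli1 was 3.09 higher (SE 0.57, 8.50-fold, limma adjusted p = 0.0104) and Dhh 2.29 higher (SE 0.48, 4.89-fold, limma adjusted p = 0.0174), or 3.73-fold with undifferentiated replicate 1 of Dhh raised as above. These 2 of 9 probes passed the test, against 13.6% of all probes, and the same 2 probes passed the 2-fold rule, as did 32% of all probes. Without cabozantinib replicate 2 the Gli1 difference was 2.59 with an adjusted p of 0.127, and that of Dhh was 2.28 with an adjusted p of 0.211. For Dhh the adjusted p was also 0.177 without cabozantinib replicate 1 and 0.0526 with no filter on dim probes, and with normexp the differences were 1.55 (Gli1, adjusted p = 0.478) and 0.40 (Dhh, adjusted p = 0.797). The brighter Sufu probe differed by -0.54 and the dimmer probe by 0.84, with limma adjusted p of 0.552 and 0.305.

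The rest of the pathway was described with 66 other genes in 4 lists, each gene counted once in a list at its brightest tested probe. Between differentiated and undifferentiated osteoblasts, 6.31% of all 16119 named genes tested were higher and 4.36% lower at an adjusted p under 0.05. Of 13 measured genes for the release and binding of ligands, 1 rose and 1 fell. Scube2, which helps release the lipid-bound ligand, rose by 2.29 (log2, limma adjusted p = 0.0302), from -1.34 and -2.43 to 0.21 and 0.61. Gpc3, a membrane proteoglycan that binds Hedgehog, fell from 0.13 and 1.05 to -1.84 and -0.98 (limma adjusted p = 0.0410). The inhibitor gene Hhip, a Hedgehog-binding decoy and a target of the pathway, differed by 0.52 (limma adjusted p = 0.719). The median of the list was 0.10, and that of all genes 0.12.

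Of 20 genes of signal transduction, 2 rose and 1 fell. Both beta-arrestin genes, whose products carry Smoothened, were higher in differentiated osteoblasts. Arrb2 rose by 2.52 (limma adjusted p = 0.00995), and Arrb1 by 2.28 (limma adjusted p = 0.0179). Tulp3, which brings receptors into the cilium, had a difference of -2.19 (limma adjusted p = 0.0266). Of 18 measured cilium genes 0 rose and 1 fell, and in limma 17 of the 18 did not pass the threshold. Ift172, a carrier of intraflagellar transport, had levels of -2.04 and -1.80 in undifferentiated and of -4.87 and -5.22 in differentiated osteoblasts, a difference of -3.13 (limma adjusted p = 0.00416). Only 1 of those differentiated arrays was above background for it. The list medians were 0.12 for transduction and 0.12 for the cilium.

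Of 13 measured target genes, 0 rose and 3 fell in limma (0 higher and 4 lower at an unadjusted p under 0.05, as were 11.9% and 10.1% of all genes). Spp1, the osteopontin gene, had a difference of -3.67 (limma adjusted p = 0.0320, and 0.0548 without the replicate term). Ccnd1 and Ccnd2, the D-type cyclin genes of the cell cycle, had differences of -3.22 (limma adjusted p = 0.00365) and -1.96 (limma adjusted p = 0.0319). Foxf2 had a difference of -1.97 that missed the threshold (limma adjusted p = 0.0646) but passed it without the replicate term (0.0453). The median of the list was -0.30.

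**Figure D3:**
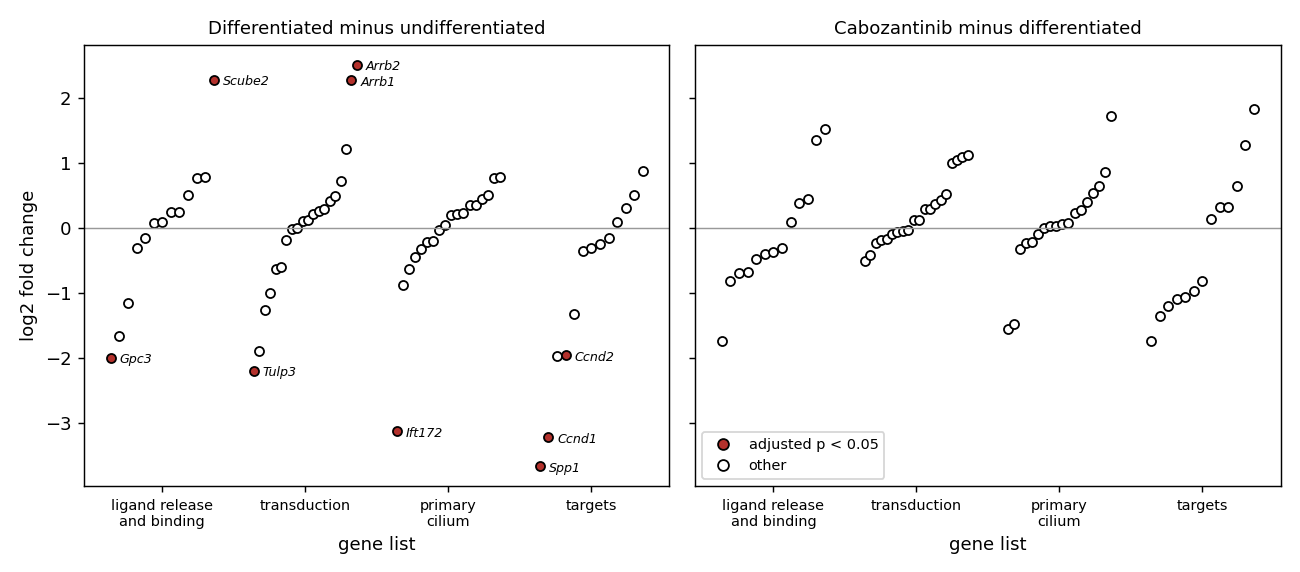
Log2 fold changes of the genes tested in 4 lists of the Hedgehog pathway, ordered by size within each list, for differentiated minus undifferentiated and cabozantinib minus differentiated osteoblasts. Named red points have an adjusted p under 0.05. They number 9 in the first comparison and 0 in the second.

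With cabozantinib, no gene of the 4 lists had an adjusted p under 0.05 in limma when compared with differentiated osteoblasts, where 0.136% of all genes were higher and 1.93% lower. At an unadjusted p under 0.05 there were 3 genes of ligand release and binding, 0 of transduction, 3 of the cilium and 4 targets, against 19.5% of all genes. The list medians were -0.36 for ligand release and binding, 0.13 for transduction, 0.05 for the cilium and -0.81 for targets, and that of all genes was -0.21. The highest and lowest values were those of Disp2 (1.53, taken against 2 differentiated arrays at background) and Hhip (-1.73) among ligand genes and of Tulp3 (1.13) and Gpr161 (-0.50) in transduction. They were those of Ift172 (1.72, with only 1 differentiated array above background) and Ift140 (-1.55) among cilium genes, and of Ccnd1 (1.85) and Hhip (-1.73) among targets. Without the replicate term, 6 genes of the lists passed the threshold. Hhip (adjusted p = 0.0317), Ift140 (0.0487), Kif3b (0.0451) and Pthlh (0.0448) were lower with cabozantinib, and Ift172 (0.0313) and Ccnd1 (0.0268) were higher. Against undifferentiated osteoblasts, where 5.68% of all genes were higher and 6.89% lower, Scube2 was 3.66 higher (limma adjusted p = 0.00495), Arrb1 2.41 higher (limma adjusted p = 0.0160) and Arrb2 2.34 higher (limma adjusted p = 0.0163). Among targets Spp1 (-3.34, limma adjusted p = 0.0414, and 0.0502 without the replicate term) and Foxf2 (-2.94, limma adjusted p = 0.0139) were lower. Without that term the number of genes passing in this comparison went from 1 to 2 for ligand release and binding, from 2 to 3 for transduction, from 0 to 2 for the cilium and from 2 to 5 for targets.

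Genes of cells that are known to make Dhh and Ihh moved with differentiation as well. Of 7 measured markers of Schwann cells and glia, 4 rose and 0 fell, and of 12 chondrocyte markers, 5 rose and 0 fell. Of all genes tested, 6.31% were higher and 4.36% lower by the same rule. Foxd3, a transcription factor gene of the neural crest, went from -6.46 and -5.77 before differentiation to -2.21 and -1.62 after it, and was at -1.79 and -2.82 with cabozantinib. It rose by 4.20 (limma adjusted p = 0.00206), but only 1 undifferentiated array was above background, so the rise rests partly on a background value. Ncmap rose by 4.06 (limma adjusted p = 0.00478) and Sox10 by 2.28 (limma adjusted p = 0.0287), while S100b differed by 0.43 (limma adjusted p = 0.835). The summed linear level of the glial list was 7.41 and 4.24 in undifferentiated, 7.74 and 19.4 in differentiated, and 8.99 and 11.5 in cabozantinib-treated osteoblasts. S100b had the brightest probe of this list on every array and makes up the largest part of the sum. Of the 8 listed genes, 6 were above background in both undifferentiated samples. Of the chondrocyte markers, Ucma rose by 7.89 (limma adjusted p = 0.000211), while Col2a1 differed by 0.11 (limma adjusted p = 0.977). The summed level of the list lay between 94.8 and 195 on the undifferentiated and between 164 and 307 on the differentiated arrays. Col2a1 was its brightest probe on every array and makes up the largest part. Both sums therefore depend much on their brightest probes, but their differences between groups also come from other genes. S100b had a level of 2.67 on undifferentiated replicate 1 and of 2.07 on differentiated replicate 1, while the glial sum was higher on the latter. Macrophage and osteoclast markers (3 of 7 higher) and adipocyte markers (5 of 6 higher) rose too. Between cabozantinib-treated and differentiated osteoblasts, no glial or chondrocyte marker passed the test in limma, while without the replicate term Gfap (adjusted p = 0.0475) and Matn3 (0.0324) were lower. Neither cabozantinib array was above background for Gfap, so its difference rests on background values there. In these bulk samples more cells of a type and more RNA per cell cannot be told apart, and the part of other cells in the Dhh and Gli1 values was not tested.

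**Figure D4:**
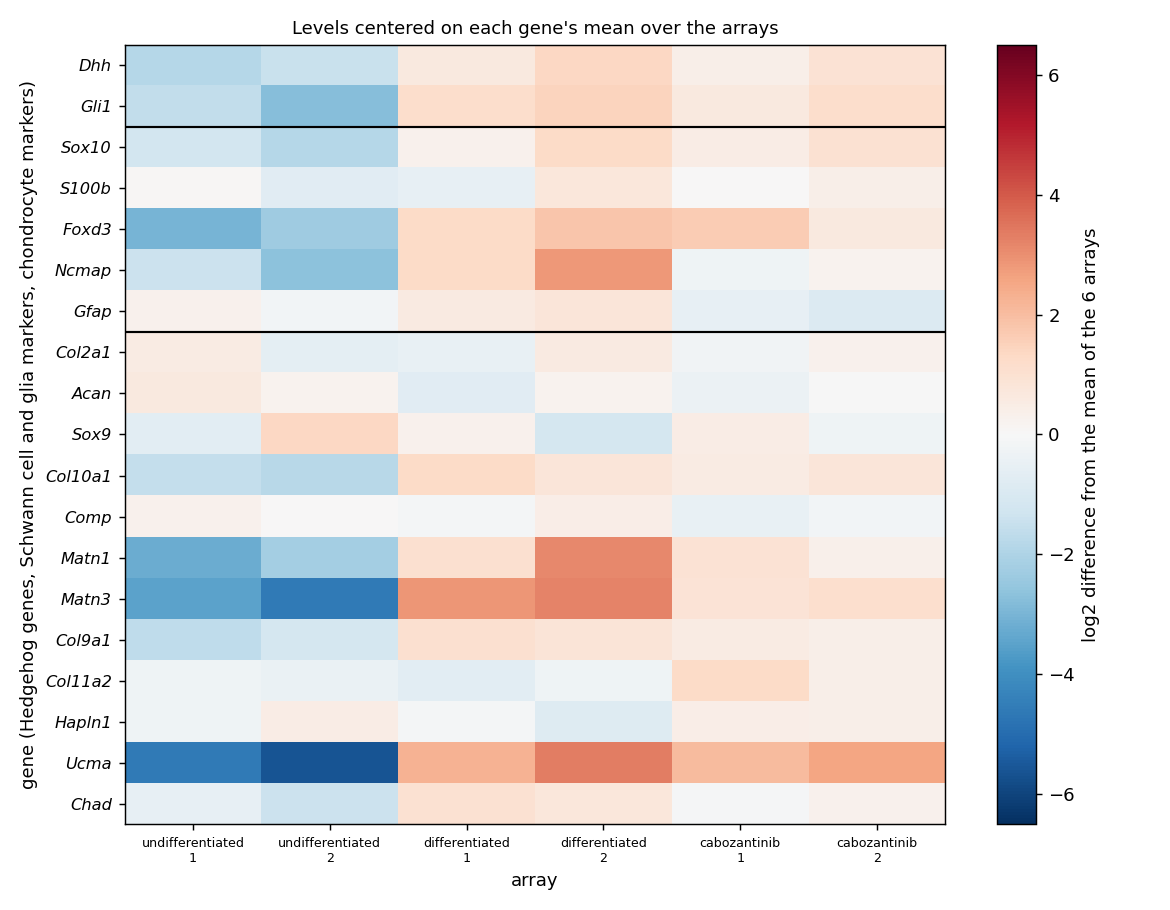
Levels of Dhh and Gli1 on the 6 arrays above 5 of the 7 tested markers of Schwann cells and glia and the 12 tested markers of chondrocytes, each as the log2 difference from the mean of that gene over the arrays. Dhh, Gli1, Foxd3, Ncmap, Sox10 and Ucma are lower on both undifferentiated arrays than on the other 4, while Col2a1 and S100b show no such split.

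The genes whose values were most like those of Gli1 over the 6 arrays, by the root mean square of the differences after each was centered on its own mean, were Rasgef1b (0.11 on the log2 scale), Sprr2g (0.13) and Sp110 (0.14). Sprr2g was not above background on either undifferentiated array, so its place rests on background values there. Rasgef1b, for example, had levels of 0.81 and -0.32, of 3.64 and 3.96, and of 2.87 and 3.47 in undifferentiated, differentiated and cabozantinib-treated osteoblasts. These 6 values are 2 from each of 3 groups, and the likeness is a description only. The same search could not be made for Ptch1, which had no tested probe.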

How the data were processed

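Gene arrays of 2 undifferentiated, 2 differentiated and 2 cabozantinib-treated osteoblast samples were analyzed. Per the file headers, the deposited intensities (43020 spots on each array) were background-subtracted and detrended with Feature Extraction 11.0.1.1, while the medians of spots and local background used for normexp were uncorrected. The authors' table holds log2 values of 30439 probes, whose distributions are nearly equal between arrays by a method not given in the sources used here. Feature columns were joined to genes by RefSeq accession (69.1% of probes named).

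Control and outlier spots were removed, log2 signals were averaged for each probe, and each array's 75th percentile over these averages was subtracted. This percentile was chosen over one taken over all spots after the counts of called probes under both had been seen. Probes were kept if at least 2 of 6 arrays had them above background and no value was missing (27196, 40 others having missing values). All 6 arrays were fitted with limma 3.58.1 (R 4.3.3, the data.table package, 1.17.8) with group and replicate number as terms, since the statistics section of the study names a paired test, which left 2 residual and 7.67 prior degrees of freedom. The Benjamini-Hochberg method was applied over all probes kept. The numbers do not pair the samples: deviations of same-numbered arrays correlated at -0.51 (undifferentiated and differentiated), -0.53 (undifferentiated and cabozantinib) and 0.26. With 2 arrays in each group the precision is limited by their number. No spot was saturated.

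The members and lists were chosen with earlier results of these data known. The genes named are all probes found for the 9 members, list genes with an adjusted p under 0.05 or otherwise the highest and lowest of a list, and the 3 genes most like Gli1. A few further genes (Bglap2, Col1a1, Col1a2, Alpl, Runx2, Col2a1, Csf1r, Foxd3, Ncmap, Sox10, Ucma, S100b, Gfap, Matn3, Kif3b, Pthlh, Hhip and Foxf2) were named after their values were seen. Some list genes enter the counts, medians and sums of their lists but are not reported here by themselves. Of the 8 marker lists, endothelial cells had 1 of 6 tested genes higher with differentiation, muscle 0 of 4, erythroid cells 0 of 2 and osteoblasts 5 of 11 higher and 1 lower in limma. The shares over all genes were 6.31% higher and 4.36% lower. Alternatives were quantile normalization, normexp (offset 50), the authors' values, other probe filters, no replicate term, only the compared arrays, a variance trend, single-probe t statistics and each array left out. Functions were tested on simulated data. Python 3.11.15, pandas 2.3.3 and matplotlib 3.10.9 were used for sequences and figures.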

Additional observations from a re-analysis of the deposited data

How the results depend on the processing

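The number of Hedgehog probes called with differentiation (3) was 0 with normexp and an offset of 50, 0 with the methods' t-test, paired or unpaired, 1 among probes well above background on all 6 arrays (where only 4 of the 9 probes remain), and 5 with a replicate block in which undifferentiated replicates 1 and 2 trade places, an alternative chosen after seeing the data. For cabozantinib against undifferentiated osteoblasts (2) it was 0 with normexp and with both t-tests, and 1 with no filter on dim probes or with probes above background on all 6 arrays. For cabozantinib against differentiated osteoblasts (0) it was 2, both of Sufu, with no replicate block, in the 4 arrays compared and with the traded numbers. Leaving out single arrays gave 1 to 4, 0 to 2 and 0 to 2 probes called in the 3 comparisons. Without the replicate block the calls with differentiation and against undifferentiated osteoblasts stayed at 3 and 2. The 75th percentile over spots, also added after seeing the data, kept the member counts at 3, 0 and 2, but over the whole array it gave 2634, 1 and 3647 called probes for differentiation, cabozantinib against differentiated and cabozantinib against undifferentiated osteoblasts, where the scaling reported gave 2728, 682 and 3700. The background share of 2.51% for cabozantinib therefore depends on this choice, which was made with both counts in view, and it ranged from 0 probes after quantile normalization to 3413 without the block and 8278 with the traded numbers. For differentiation the whole-array count ranged from 0 (t-tests) to 7358 (traded numbers), and for cabozantinib against undifferentiated osteoblasts from 0 to 12299. Signs turned only for differences that had not passed the test. For cabozantinib against differentiated osteoblasts, quantile normalization and the authors' values turned Dhh to 0.16 and 0.16, Gli2 to 0.26 and 0.24 and Ihh to 0.51 and 0.51. Against undifferentiated osteoblasts they turned the brighter Sufu probe to 0.28 and 0.28, and normexp turned Ihh to -0.41 and the dimmer Sufu probe to -0.12. With differentiation, normexp turned Ihh to -0.11. With single arrays left out, the range for cabozantinib against differentiated osteoblasts was -0.87 to 0.12 for Gli1, -2.48 to 1.75 for Gli2 and -0.53 to 0.069 for the brighter Smo probe. Against undifferentiated osteoblasts it was -3.89 to 0.34 for Gli2, -1.18 to 0.32 for Gli3, -0.26 to 0.33 for Ihh and -1.17 to 0.088 for the brighter Sufu probe, and with differentiation -2.84 to 0.026 for Gli2 and -0.024 to 0.56 for Ihh. The causes were not tested. Signal over background limits Shh, Ptch1, Sufu and Gli2 most.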
